A study of Sus scrofa with 2 samples.

Results

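Immune cell miRNAs in whole pig testis were examined through 7 miRNAs known from blood cells and their responses, namely miR-142, miR-146a, miR-146b, miR-150, miR-155, miR-223 and miR-342, out of 1129 miRNA names in the 2 libraries. They were chosen by name in the deposited lists, with the reads of all species' entries of a name added up for each arm of the precursor and miR-146a and miR-146b kept apart. The 180-day library held pooled testis RNA of 3 sexually mature Junmu-1 boars, and the 30-day library that of 3 sexually immature boars of the same white Chinese breed. The labels name no genotype or treatment and no sorting of cells, and with 1 pooled library per age there is no spread between animals and no test. The reads matched to miRNAs numbered 852209 in the 180-day library and 7525725 in the 30-day library, so 3 reads correspond to 3.52 and 0.399 RPM, reads scaled to 1000000 miRNA-matched reads. All intervals are exact 95% intervals (Clopper-Pearson) for counting error alone, so they say how far apart the libraries lie and not how far apart boars of these ages lie.

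miRNAs are short RNAs that guide Argonaute proteins to messenger RNAs, mainly through the seed, bases 2 to 8 from the 5′ end. miR-142 is found throughout blood cells, miR-223 marks neutrophils and other myeloid cells, miR-150 marks mature lymphocytes, and miR-155 is induced in activated lymphocytes and macrophages. miR-146a is induced through NF-kappaB, and miR-146a and miR-146b dampen Toll-like receptor signalling by targeting TRAF6 and IRAK1, as shown in human and mouse cells. In mouse testis miR-146a is also known from undifferentiated spermatogonia, so it is not restricted to blood cells. Testis holds resident macrophages and other leukocytes between the tubules, beside the blood of its vessels.

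The leading tag of each measured arm, the distinct sequence with the most reads over both libraries, is shown first because the seed decides which arms are related. Capitals mark the seed. Letters are written as DNA, as in the deposited lists.
miR-146b-5p: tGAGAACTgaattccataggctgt
miR-146a: tGAGAACTgaattccatgggtta
miR-342-3p: tCTCACACagaaatcgcacccgt
miR-342-5p: aGGGTGCTatctgtgactgag
miR-142-5p: cCCATAAAgtagaaagcact
miR-142-3p: gTAGTGTTtcctactttatgga
miR-150: tCTCCCAAcccttgtaccagtg
miR-155: tTAATGCTaattgtgataggggt
miR-223: gTCAGTTTgtcaaataccccaa
Only miR-146a and miR-146b-5p share a seed among these 9 arms. In the RefSeq gene table of Sscrofa11.1, 6 of the 7 members have a miRNA gene by name, and MIR342 lies within EVL, an actin regulator gene that also hosts miR-342 in human.

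Together the 7 miRNAs took 0.148% of the miRNA reads in the 180-day library (0.140 to 0.156%) and 0.0503% in the 30-day library (0.0487 to 0.0520%). In reads these were 1262 and 3788. The ratio of the summed members was 2.94 (2.76 to 3.14), and nearly all of that difference lay in miR-146a and miR-146b. These had 1171 RPM together in the 180-day library and 214 RPM in the 30-day library, while the other 5 miRNAs summed to 310 RPM and 289 RPM, a ratio of 1.07 (0.940 to 1.22). These ratios are by RPM, and the other scalings given below put them lower. In whole tissue, fewer cells of a type and less RNA per cell cannot be told apart.

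The makeup of the member reads does not depend on how the libraries are scaled. miR-146a and miR-146b held 79.1% of them in the 180-day library (76.7 to 81.3%) and 42.6% in the 30-day library (41.0 to 44.2%). miR-146b alone held 54.6% (51.8 to 57.4%) and 26.9% (25.5 to 28.3%). The shares of miR-142, miR-150, miR-155 and miR-342 were smaller in the 180-day library with intervals that did not meet, as for miR-142 with 7.37% (5.99 to 8.95%) and 18.5% (17.3 to 19.8%). Shares sum to 100%, so where miR-146a and miR-146b hold more, the rest together hold less. By RPM, with arms added, the ratio was 1.17 (0.933 to 1.46) for miR-142 and 1.06 (0.842 to 1.31) for miR-342. It was 0.836 (0.599 to 1.14) for miR-150 and 0.432 (0.171 to 0.914) for miR-155. The share of miR-223 was 2.22% (1.48 to 3.19%) in the 180-day library and 2.56% (2.08 to 3.12%) in the 30-day library, and those intervals overlapped.

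**Figure D1:**
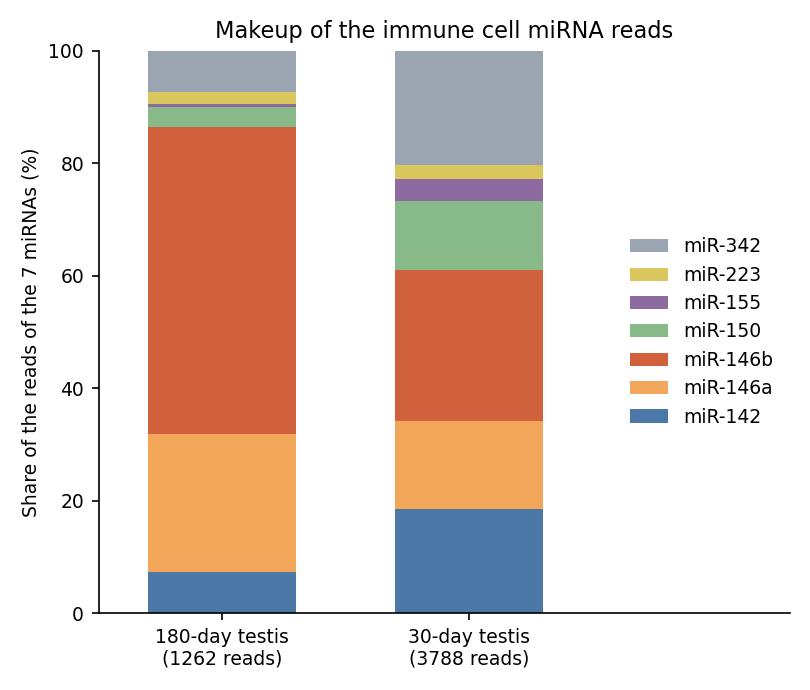
Share of the reads of the 7 miRNAs held by each, in percent, both arms added, with 1 bar per library (180-day, 1262 reads; 30-day, 3788 reads). miR-146a and miR-146b fill 79.1% of the 180-day bar and 42.6% of the 30-day bar.

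Of 12 member arms with a read, 9 had 20 or more reads over both libraries and were compared. An arm was called when its RPM in the 180-day library was at least 2-fold above or below that in the 30-day library and the interval of the ratio left out 1. By this rule 3 of the 9 arms were higher in the 180-day library and 2 were lower, beside 30.0% higher and 11.9% lower among all 444 arms with as many reads. In either direction 5 of the 9 arms were called, beside 41.9% of the 444. All 9 also had 100 or more reads, and of the 304 arms with that many 24.7% were higher, 14.1% lower and 38.8% either. With 9 arms, these counts are not a result about the members. The median log2 ratio was 0.28 over the 9 arms and 0.25 over all 444. The 3 arms with fewer reads were the star arms miR-146b*, miR-155* and miR-223*, with 0 reads each in the 180-day library and 1, 1 and 2 reads in the 30-day library.

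These ratios describe the miRNA pool. The deposited tag numbers follow falling read counts, and read as ranks they put miRNA matches at no more than 7.08% of the 180-day library and 59.2% of the 30-day library. When levels are taken per sequenced read, using the smallest totals these numbers allow, every log2 ratio shifts by -3.06 and none of the 9 arms stays above 1. By the same call rule 0 of the 9 were then higher and 7 lower, beside 5.63% higher and 84.0% lower of all 444 arms. Reading the tag numbers as ranks is an inference, and the true totals may exceed the smallest ones by unlike amounts. Ratios per sequenced read, here and below, therefore hold only at the smallest totals and are not bounds. Their intervals leave this uncertainty out. TMM scaling, computed on all 1328 arms without a minimum of reads, shifts log2 ratios by -0.93. Under it 2 of the 9 were higher and 3 lower, beside 15.8% higher and 34.0% lower of the 444. That shift is larger than the median log2 ratio by RPM of the 444 arms, 0.25, so TMM scaling does not centre them.

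**Figure D2:**
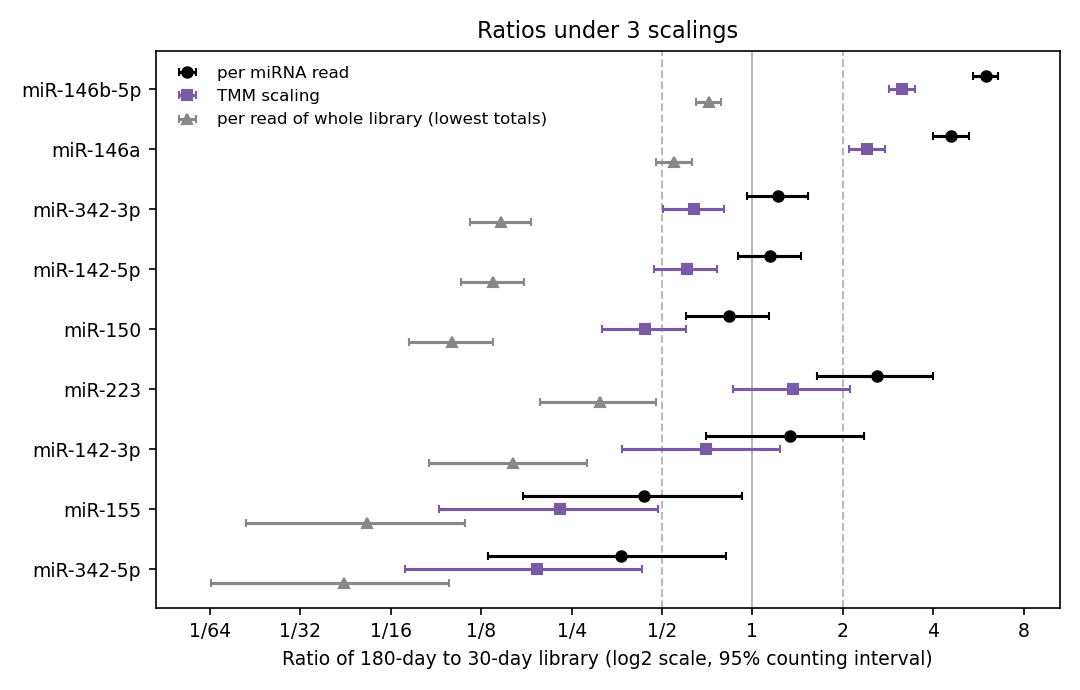
Ratios, 180-day over 30-day library, of the 9 measured arms (log2 axis, bars are 95% counting intervals) per miRNA read, under TMM scaling and per sequenced read of the library at the smallest totals. The order of the arms is the same in each, with miR-146b-5p farthest to the right (5.98, 3.15 and 0.716), and the last scaling puts all arms below 1.

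miR-146b-5p, from the miR-146b precursor, was the most abundant member in both libraries. It had 689 reads (808 RPM, 749 to 871) in the 180-day library and 1017 reads (135 RPM, 127 to 144) in the 30-day library. By level it stood 75th of 862 detected arms in the 180-day library and 135th of 1132 in the 30-day library. The ratio was 5.98 (5.42 to 6.60), which was 3.15 (2.85 to 3.47) under TMM scaling and turned to 0.716 (0.649 to 0.789) per sequenced read. Its opposite arm contributed 1 read in all.

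miR-146a, its relative from a separate precursor, had 309 reads (363 RPM, 323 to 405) in the 180-day library and 595 reads (79.1 RPM, 72.8 to 85.7) in the 30-day library. The ratio was 4.59 (3.98 to 5.27), with 2.41 (2.10 to 2.77) under TMM scaling and 0.549 (0.477 to 0.630) per sequenced read. The interval of miR-146a thus ended below that of miR-146b-5p. Both arms with this seed had higher RPM in the 180-day library, although per sequenced read both stood below 1.

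The 2 relatives differ at 3 positions of their leading tags, G18A, T21C and A23G, with the base of miR-146a first and positions counted from 1 at the 5′ end. Capitals mark these positions here.
miR-146a: tgagaactgaattccatGggTtA
miR-146b-5p: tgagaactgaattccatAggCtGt
By the letter at position 18, 305 of the 309 reads named miR-146a in the 180-day library and 591 of 595 in the 30-day library carried the miR-146a base. Of the reads named miR-146b-5p, 687 of 689 and 1011 of 1017 carried the miR-146b base. The deposited names thus separated the pair nearly as that base does.

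miR-223, the myeloid miRNA, was the third arm called higher, on few reads. It had 28 reads (32.9 RPM, 21.8 to 47.5) in the 180-day library and 95 reads (12.6 RPM, 10.2 to 15.4) in the 30-day library. The ratio was 2.60 (1.64 to 4.003), but 1.37 (0.865 to 2.11) under TMM scaling, where the interval includes 1, and 0.311 (0.197 to 0.479) per sequenced read. The call thus rests on the scaling to miRNA reads.

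The arms of miR-142, the pan-leukocyte miRNA, did not meet the rule. miR-142-5p had 79 reads (92.7 RPM, 73.4 to 116) in the 180-day library and 608 reads (80.8 RPM, 74.5 to 87.5) in the 30-day library, a ratio of 1.15 (0.896 to 1.45). miR-142-3p had 14 reads (16.4 RPM, 8.98 to 27.6) and 93 reads (12.4 RPM, 9.97 to 15.1), a ratio of 1.33 (0.700 to 2.34). The -5p arm gave 84.9% of the miR-142 reads in the 180-day library (76.0 to 91.5%) and 86.7% in the 30-day library (84.0 to 89.2%), with overlapping intervals.

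miR-150, a miRNA of mature lymphocytes, had 44 reads (51.6 RPM, 37.5 to 69.3) in the 180-day library and 465 reads (61.8 RPM, 56.3 to 67.7) in the 30-day library. The ratio of 0.836 (0.599 to 1.14) did not meet the rule, but under TMM scaling it was 0.440 (0.315 to 0.600) and would be called lower.

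miR-155, the miRNA of activated lymphocytes and macrophages, was called lower. It had 7 reads (8.21 RPM, 3.30 to 16.9) in the 180-day library and 142 reads (18.9 RPM, 15.9 to 22.2) in the 30-day library, a ratio of 0.435 (0.172 to 0.921). All 7 reads came from different tags of 1 read each, while its leading tag alone had 50 reads in the 30-day library. With perfect matches only, 1 and 50 reads remain and the interval includes 1 (0.00469 to 1.10).

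The arms of miR-342 lay apart from each other although they come from 1 precursor. miR-342-3p had 86 reads (100.9 RPM, 80.7 to 125) in the 180-day library and 624 reads (82.9 RPM, 76.5 to 89.7) in the 30-day library, a ratio of 1.22 (0.960 to 1.53). miR-342-5p had 6 reads (7.04 RPM, 2.58 to 15.3) and 145 reads (19.3 RPM, 16.3 to 22.7), and was called lower with a ratio of 0.365 (0.132 to 0.815). Within the precursor, the -3p arm held 93.5% of the reads in the 180-day library (86.3 to 97.6%) and 81.1% in the 30-day library (78.2 to 83.9%), with intervals that did not meet.

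The tags of miR-342-5p were not identical to any entry they were matched to, which matters because counting perfect matches alone would remove this arm. The rat entry and the leading tag are shown with the differing base in capitals.
miR-342-5p entry: aggggtgctatctgtgaTtgag
miR-342-5p leading tag: agggtgctatctgtgaCtgag
The run of G after the first base has 4 letters in the entry and 3 in the tag, and the internal difference is T18C, with the entry's base first and positions counted from the entry's 5′ end. All 6 reads in the 180-day library and 143 of 145 reads in the 30-day library carried the C.

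**Figure D3:**
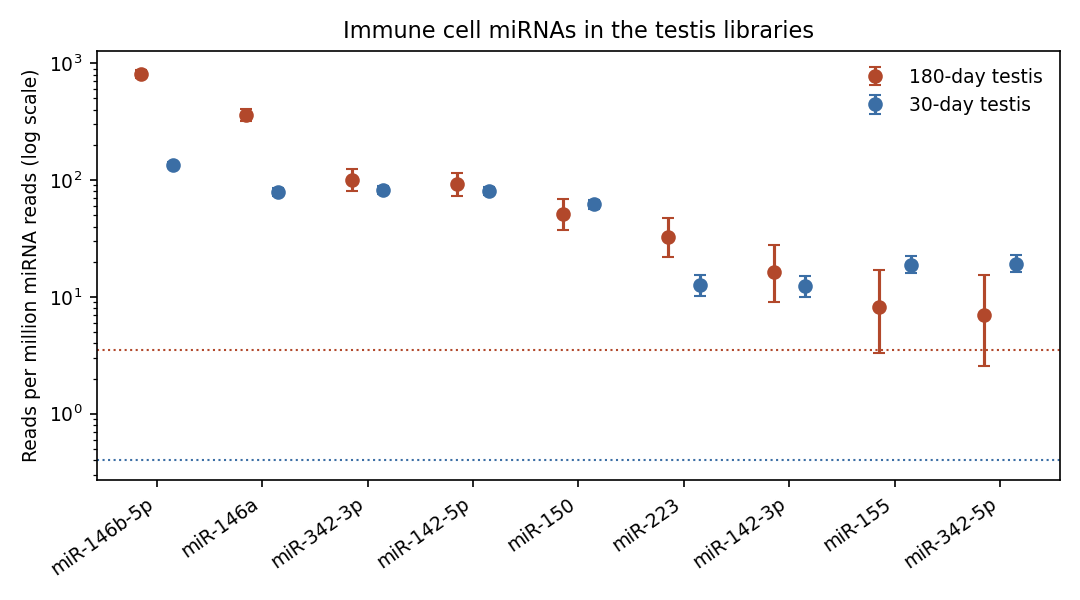
RPM (log axis) of the 9 measured arms in the 180-day and 30-day libraries, with 95% counting intervals and dotted lines at the RPM of 3 reads (3.52 and 0.399). miR-146b-5p and miR-146a stand highest in the 180-day library (808 and 363 RPM), and miR-155 and miR-342-5p lie near its line of 3 reads.

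The order of the levels differed between libraries. In the 180-day library it ran from miR-146b-5p through miR-146a, miR-342-3p, miR-142-5p, miR-150, miR-223, miR-142-3p and miR-155 to miR-342-5p. The intervals of miR-146b-5p and miR-146a met neither each other nor those of the rest. Those of miR-342-3p and miR-142-5p overlapped, that of miR-150 lay below both, and from miR-150 on each arm overlapped the next. In the 30-day library miR-146b-5p again led, followed by miR-342-3p, miR-142-5p and miR-146a, with overlapping intervals from 72.8 to 89.7 RPM. miR-150 came next, then miR-342-5p and miR-155, which overlapped each other, and miR-223 and miR-142-3p came last. The order of miR-342-3p and miR-142-5p depends on the naming. With reads named miR-142b, a fish name, counted as miR-142-5p, that arm had 96 reads in the 180-day library and 744 in the 30-day library. These are more than the 86 and 624 reads of miR-342-3p. Levels of different miRNAs also carry differences in ligation and amplification that were not measured.

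The 3′ ends of miR-146b-5p differed between the libraries by more than counting error, while the intervals of miR-146a overlapped. Tags longer than the leading tag held 16.4% of the miR-146b-5p reads in the 180-day library (13.7 to 19.4%) and 3.64% in the 30-day library (2.57 to 4.98%). Shorter tags held 10.2% (8.01 to 12.7%) and 28.5% (25.8 to 31.4%). Added bases, as seen when cells extend miRNAs at the 3′ end, mostly began with A: whole leading tags followed by A, alone or first, held 9.72% of the reads in the 180-day library (7.62 to 12.2%) and 1.87% in the 30-day library (1.13 to 2.90%). Of the forms with added or changed bases, the 4 most read of the leading tag's length or longer are shown, with those bases in capitals.
miR-146b-5p plus A: tgagaactgaattccataggctgtA
miR-146b-5p plus AA: tgagaactgaattccataggctgtAA
miR-146b-5p ending in G: tgagaactgaattccataggctgG
miR-146b-5p ending in A: tgagaactgaattccataggctgA
The form plus A had 25 reads in the 180-day library and 12 reads in the 30-day library. The form plus AA had 22 and 3 reads, the form ending in G 36 and 47 reads, and the form ending in A 25 and 20 reads. All 4 forms leave the seed unchanged. Forms of 23 bases, shorter than the leading tag, also had a changed last base and had more reads in the 30-day library. The 23-base form ending in T had 3 reads in the 180-day library and 23 in the 30-day library. The 23-base form ending in A had 3 and 16 reads. The precursor sequence was not used here, so whether an added base is encoded is not known.

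Longer miR-146a tags held 18.4% of its reads in the 180-day library (14.3 to 23.2%) and 23.9% in the 30-day library (20.5 to 27.5%). Its leading tag is the 22-nucleotide mouse entry with 1 more A. That entry followed by nothing held 21.4% (16.9 to 26.4%) and 20.8% (17.6 to 24.3%) of the reads, and the entry followed by A, alone or first, held 34.0% (28.7 to 39.6%) and 37.8% (33.9 to 41.8%). Among all 198 arms with 50 or more reads in each library, tags that extend the whole leading tag had a higher share at 180 days, with intervals apart, in 49 arms and a lower one in 17. In signed difference, 180-day minus 30-day share, miR-146b-5p stood 20th from the top of the 198, with 76 of 689 reads and 24 of 1017 reads by this measure, so such a difference is not particular to it. miR-142-5p was the 8th, with 39.2% and 23.8%. Its leading tag is shorter than the dog and chicken entries, which go on with A and AC, so its longer tags need not hold added bases. Those 2 endings had 14 and 7 reads in the 180-day library and 95 and 20 in the 30-day library.

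**Figure D4:**
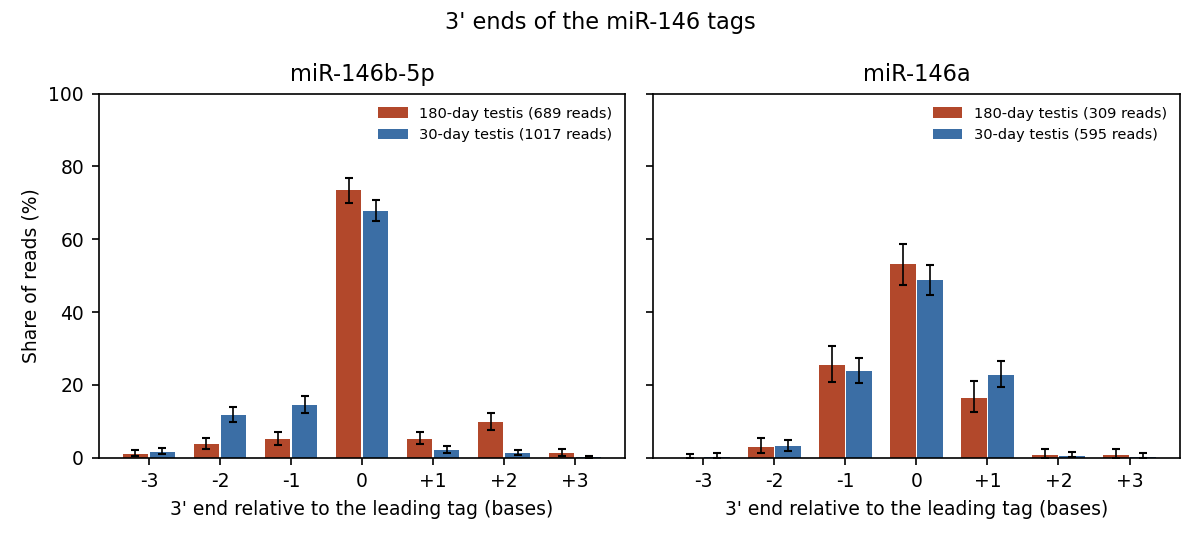
Share of reads (percent, bars with 95% counting intervals) by the position of the 3′ end relative to the leading tag, for miR-146b-5p (left panel; 689 reads at 180 days, 1017 at 30 days) and miR-146a (right panel; 309 and 595 reads). In miR-146b-5p the 2-base-longer end holds 9.72% at 180 days and 1.28% at 30 days, and the miR-146a profiles lie close together.

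The 5′ starts set the seed, and miR-142-5p and miR-223 had mixed starts in both libraries. The main starts are shown with the seed of each in capitals.
miR-142-5p, leading start: cCCATAAAgtagaaagcact
miR-142-5p, start 2 bases on: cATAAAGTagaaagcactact
miR-223, leading start: gTCAGTTTgtcaaataccccaa
miR-223, start 1 base earlier: tGTCAGTTtgtcaaatacccca
The leading start of miR-142-5p held 65.8% of its reads in the 180-day library (54.3 to 76.1%) and 55.3% in the 30-day library (51.2 to 59.3%), and the start 2 bases on held 30.4% (20.5 to 41.8%) and 38.7% (34.8 to 42.7%). These intervals overlapped, so a change in the mix of seeds was not detectable at this depth. Reads named miR-142b, a fish name, were left out of these shares, with 17 in the 180-day and 136 in the 30-day library. Their entries have the start 2 bases on. In the 30-day library the leading start had 336 reads and the start 2 bases on had 235. Which of these leads there may thus depend on the naming. The mouse entry of miR-142-5p has the start 2 bases on, and the dog entry has the leading one.

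The leading start of miR-223 held 57.1% of its reads in the 180-day library (37.2 to 75.5%) and 55.8% in the 30-day library (45.2 to 66.0%). The start 1 base earlier, that of the human entry, held 32.1% (15.9 to 52.4%) and 41.1% (31.1 to 51.6%). In miR-142-3p the leading start, 1 base after that of the mouse entry, held 6 of 14 reads in the 180-day library and 79 of 93 reads in the 30-day library, or 42.9% (17.7 to 71.1%) and 84.9% (76.0 to 91.5%). The start 2 bases further on had 5 of the 14 reads and 1 of the 93. Those 14 reads are too few to describe the start mix closely.

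By contrast, the leading start held 98.8% of miR-146b-5p reads in the 180-day library and 97.4% in the 30-day library, and 96.4% and 96.8% for miR-146a. For miR-150 it held all 44 reads in the 180-day library and 97.6% of the reads in the 30-day library. Over the 259 arms with 20 or more reads in each library the median was 95.4% and 95.7%, and 29 arms (11.2%) had a leading start under 70% in both libraries, miR-142-5p and miR-223 among them.

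**Figure D5:**
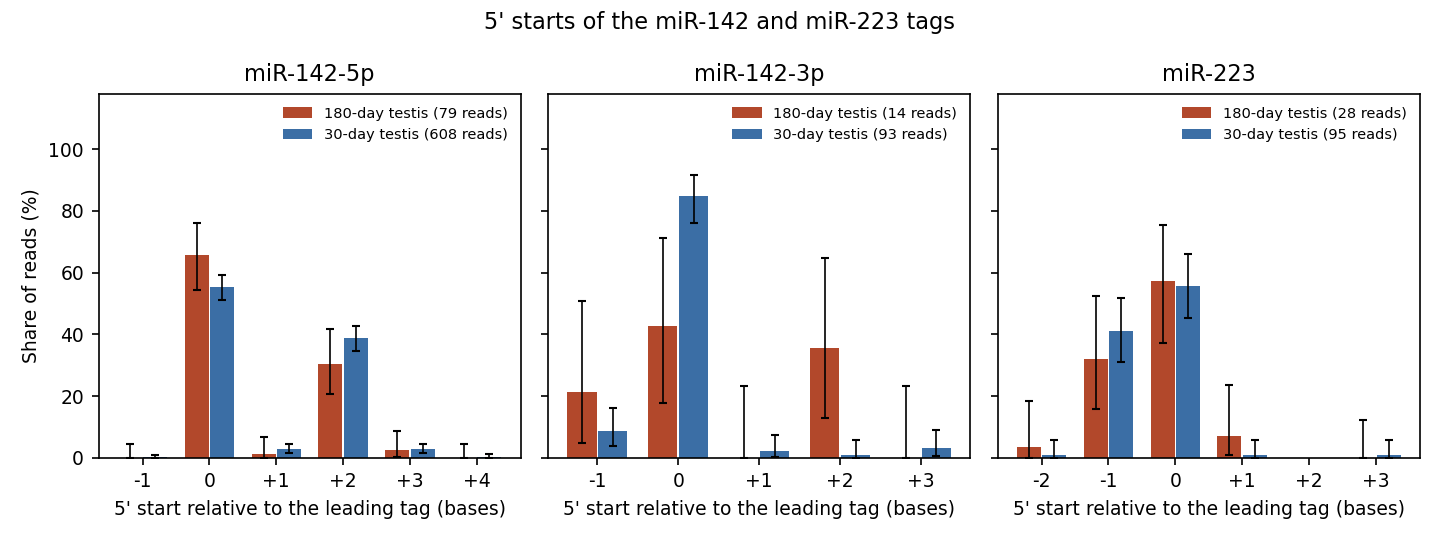
Share of reads (percent, bars with 95% counting intervals) by 5′ start relative to the leading tag, for miR-142-5p, miR-142-3p and miR-223 in the 180-day and 30-day libraries. miR-142-5p has starts at 0 (65.8% and 55.3%) and 2 bases on (30.4% and 38.7%), and the miR-142-3p bars of the 180-day library rest on 14 reads.

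miRNAs known from other cell types of testis also differed between the libraries, and their part in the results was not tested. The red blood cell list, miR-451, miR-144 and miR-486, summed to 3933 RPM in the 180-day library and 1742 RPM in the 30-day library, a ratio of 2.26 (2.17 to 2.35). That sum is led by miR-451, which is made during red cell maturation, with 3774 and 1535 RPM (ratio 2.46, 2.36 to 2.56). miR-144* had a ratio of 0.868 (0.614 to 1.20) and miR-486-5p one of 0.697 (0.533 to 0.898). By RPM 1 of 4 measured arms was higher and 0 lower, beside 30.0% and 11.9% of all 444 arms. Under TMM scaling 0 were higher and 3 lower, beside 15.8% and 34.0% of the 444. The median log2 ratio of -0.23 differs in sign from the summed ratio.

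The endothelial miR-126 arms summed to 629 RPM in the 180-day library and 381 RPM in the 30-day library, with 0 of 2 arms called and a median log2 ratio of 0.65. Their ratios were 1.90 (1.69 to 2.13) for miR-126-5p and 1.30 (1.10 to 1.52) for miR-126-3p. Of the smooth muscle miRNAs 3 of 4 arms were higher and 0 lower by RPM, beside 30.0% and 11.9% of all 444 arms. Under TMM scaling 0 of the 4 were called, beside 15.8% higher and 34.0% lower of the 444. Their median log2 ratio by RPM was 1.58. The most read was miR-143, with 14731 and 5342 RPM (ratio 2.76, 2.70 to 2.81), and miR-145 had a ratio of 3.72 (3.53 to 3.91) and miR-143* one of 1.11 (1.01 to 1.23). After the shift of -3.06 that comes with counting per sequenced read, all arms of these 3 lists lie below 1.

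All 7 measured arms known from meiotic and later germ cells were higher under each of the 3 scalings. Of all 444 arms 30.0% were higher by RPM, 15.8% under TMM scaling and 5.63% per sequenced read. The median RPM log2 ratio of the 7 was 10.14, in which the 1 arm without 30-day reads was set at 3 reads. These germ cell arms summed to 35280 RPM in the 180-day library and 11.7 RPM in the 30-day library. miR-34c, a miRNA of spermatocytes and spermatids in mouse, had 19274 and 45 reads, miR-449a had 6056 and 19 reads, and miR-34b-5p had 2268 and 2 reads. This list is far above every member in size of difference, and its reads are part of the total to which the members' RPM are scaled.

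Other miRNAs linked to immune cells, none of them restricted to such cells, were counted by the same rule on RPM, by which 30.0% of all 444 arms were higher and 11.9% lower, and again under TMM scaling, by which 15.8% were higher and 34.0% lower. Of 15 measured arms linked to lymphocyte development 0 were higher and 1 was lower by RPM, beside 30.0% and 11.9% of all arms, while under TMM scaling 0 were higher and 9 lower. The median log2 ratio by RPM was -0.14. The arm called lower by RPM was miR-92a of the miR-17-92 cluster, with a ratio of 0.419 (0.389 to 0.451). miR-181a, which tunes T cell receptor signalling in mouse, had 1153 RPM in the 180-day library and 2306 RPM in the 30-day library, a ratio of 0.5003 (0.469 to 0.534), and miR-181b had one of 0.583 (0.537 to 0.633).

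Of 15 arms linked to myeloid and macrophage differentiation 0 were higher and 1 was lower by RPM, beside 30.0% and 11.9% of all arms, while under TMM scaling 0 were higher and 11 lower. The median log2 ratio by RPM was -0.51. The arm called lower by RPM was miR-27a, with a ratio of 0.496 (0.452 to 0.542). The most read arms, let-7e, miR-23a and miR-24, had ratios of 0.527 (0.514 to 0.541), 1.29 (1.24 to 1.33) and 0.713 (0.666 to 0.763).

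Among the other miRNAs induced by Toll-like receptors or NF-kappaB, 4 of 8 measured arms were higher and 0 lower by RPM, beside 30.0% and 11.9% of all arms, while under TMM scaling 3 were higher and 3 lower. The median log2 ratio by RPM was 0.60. miR-132 had a ratio of 2.34 (1.78 to 3.03), miR-132* of 7.86 (5.66 to 10.9) and miR-147 of 5.11 (2.20 to 11.3) on 11 and 19 reads, and these 3 fall below 1 per sequenced read. miR-9* had a ratio of 72.5 (41.5 to 137) and does not. The other way lay miR-187, with 0 reads in the 180-day library and 32 in the 30-day library. Its ratio of 0 (0 to 1.08) was not called by RPM. miR-21, the most read of this list, had 8435 RPM in the 180-day library and 8582 RPM in the 30-day library, a ratio of 0.983 (0.959 to 1.01). miR-125b-5p and miR-125b* had ratios of 0.689 (0.663 to 0.716) and 0.803 (0.654 to 0.977). miR-21 and the miR-125b arms were not called by RPM, while miR-146a and miR-146b-5p had higher RPM in the 180-day library and stood below 1 per sequenced read.

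Of 12 arms linked to T helper and regulatory T cells 7 were higher and 0 lower by RPM, beside 30.0% and 11.9% of all arms, while under TMM scaling 3 were higher and 5 lower. The median over the list was 1.15 on the log2 scale by RPM. The 7 were both arms of miR-29a and of miR-29b, which fibroblasts express as well, with miR-31, miR-182 and miR-210. miR-29a had 37974 RPM in the 180-day library and 17353 RPM in the 30-day library (ratio 2.19, 2.16 to 2.22). miR-27b and miR-214 had ratios of 0.612 (0.572 to 0.654) and 0.536 (0.491 to 0.583), so the arms of this list did not move together. Per sequenced read, miR-182 with its ratio of 10.4 (8.96 to 12.1) is the one arm of the 7 that stays above 1.

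The miRNAs nearest to the 3 most read members in the log2 RPM of the 2 libraries were sought among 293 arms with 100 or more reads. miR-192 and miR-508 lay nearest to miR-146b-5p, at distances of 0.46 and 0.59 log2 units. miR-514 and miR-30b lay nearest to miR-146a, at 0.34 and 0.40. miR-30a* and miR-217 lay nearest to miR-342-3p, at 0.13 and 0.14. With 2 libraries, such likeness says only that the level was similar in each.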

How the data were processed

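Per the labels' protocols, total RNA of 3 boars was pooled per age, small RNA of about 18 to 30 nucleotides was cut from a gel, ligated, amplified (15 PCR cycles) and read by an Illumina 1G analyser. The authors deposited raw read counts of distinct tags, each with its sequence and 1 miRNA entry of any species, and a score per alignment, which was not used. The sources used here give no aligner, miRBase release or build. No molecular identifiers are named, so reads are not independent molecules. Entries of a name were pooled into 1328 arms where they agreed over 14 or more bases within 4 mismatches and a shift of up to 3. Names that differ between species stayed apart, so the main miR-9 arm stands under miR-9a. Each read was counted once, under its deposited name. Ratios, shares and intervals were computed in Python 3.11.15 with scipy 1.17.1, and TMM and median-of-ratios factors with edgeR 4.0.16 and DESeq2 1.42.0. Tags were aligned without gaps to the leading tag, with a shift of up to 4. The computations were tested on simulated data. The members and lists were chosen with earlier results of these data known. Named were all member arms, up to 3 of the most read members of each list and the 2 nearest arms. The other called list members and miR-187 were named after their values were seen. Alternatives were other scalings, tag filters, name rules and minimum reads.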

Additional observations from a re-analysis of the deposited data

Results flagged for a closer look

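Reads named miR-142b, a name used for fish entries, fell outside the members but lay above the level of 3 reads in both libraries, with 19.9 RPM in the 180-day library (17 reads) and 18.1 RPM in the 30-day library (136 reads). Their ratio was 1.10 (0.625 to 1.83), and counting them as miR-142-5p left that arm uncalled. The shares of the 5′ starts of miR-142-5p were not recomputed with them. Reads named miR-146c, a chicken name, had 4.69 RPM in the 180-day library (4 reads) against 0.133 RPM in the 30-day library (1 read), just above the 3.52 RPM of 3 reads.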

How the results depend on the processing

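Of 80 recomputed ratios of single arms, 55 stayed within their counting interval, 22 left it and 3 called ones changed direction. Those 3 did so per read of the whole library (lowest totals), where miR-146b-5p was 0.716, miR-146a 0.549 and miR-223 0.311, and the summed members were 0.352. There 0 member arms were at least 2-fold higher and 7 lower, and 8 list arms were higher and 53 lower, against 22 and 2 with RPM. Of all 444 arms 5.63% were higher and 84.0% lower there, against 30.0% and 11.9% with RPM. Under TMM and median-of-ratios scaling alike, the summed ratio was 1.55, 2 member arms were higher and 3 lower, and 13 list arms were higher and 31 lower. With TMM, 15.8% of all 444 arms were higher and 34.0% lower. With perfect matches only the summed ratio was 3.44, 0 member arms and 5 list arms were lower; miR-342-5p has no perfect tag, and the intervals of miR-155 (0.00469 to 1.10) and miR-223 (0.690 to 9.41) include 1. Without tags of 1 read 9 list arms were lower and miR-155 had 0 reads in the 180-day library. For these 2 filters the share over all arms was not computed, so their list counts are not a result about the lists. Counts of called member arms stayed at 3 and 2 with mammalian entries only and with best matching entries. No minimum and a minimum of 100 reads also gave 3 and 2, but these could not change the counts. All 9 measured arms had 100 or more reads, and the star arms had at most 2. Of 36 recomputed shares 14 left their interval, 12 of them with perfect matches only. Several of those moves were fixed by the entries and say nothing about stability. No miR-223 entry has the leading start, miR-342-5p has no perfect tag, and the entries of miR-146a and miR-146b share their start. The 2 name alternatives for miR-142b and the miR-146 pair were chosen after seeing the data and moved no call. They leave the ratios of all other arms unchanged by design, and TMM and median-of-ratios scaling nearly coincide. The 55 of 80 ratios that stayed within their interval therefore do not measure stability. The 180-day depth leaves miR-155, miR-342-5p and miR-142-3p at 14 reads or fewer. No paired analysis was possible because each age has 1 pooled library.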
